A study of Homo sapiens with 7 samples.

Results

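The regions described here were CTCF peaks that lay at the start of a single protein-coding gene and held no G-quadruplex (G4) motif. A peak was taken when its centre lay within 1 kb of a coding gene start that had no coding gene of the opposite strand starting head-to-head within 1 kb, and when no G4 motif overlapped it (4 or more runs of 3 or more G on the same strand, separated by 1 to 7 nt). Of the 33069 peaks of control cells on chromosomes 1 to 22 and X, 2292 met the rule (6.93%). Of the 32893 peaks of cells treated with pyridostatin (PDS), 2246 did so (6.83%). The peaks just inside and just outside the 1 kb limit were alike in number. In the control list 119 lay 900 to 1000 bp from the start and 106 lay 1000 to 1100 bp from it, and the PDS list had 123 and 115. The rule excludes a G4 motif from the peak only, and not from the promoter around it. A G4 motif lay within 1 kb of the start at 67.2% of the starts with such a peak in either list. The share was 65.0% at all single-gene starts.

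The ChIP-seq experiment used K562, an established human erythroleukemia line, and PDS, a ligand that stabilizes G4 structures. Untreated cells gave 2 CTCF samples and 1 IgG sample. Cells kept in 10 μM PDS for 24 h gave 2 of each. Both replicates of a condition were merged into 1 peak list by the peak caller, so no value of a single replicate was at hand, the sequencing depth was unknown, and all intervals below cover counting error only. PDS was given to 1 cell line at 1 dose and 1 time.

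CTCF is a zinc-finger protein that binds DNA through a run of fingers, stops loop extrusion by cohesin and so marks the anchors of chromatin loops and the borders of insulated domains. Most of its strong sites lie away from genes and carry the CTCF consensus, whose orientation decides which side of a loop the site anchors. Promoters of widely expressed genes are often GC-rich and unmethylated CpG islands, where nucleosomes are thin and many factors meet. G4 structures form in the same islands.

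Sequences are shown for 6 members that held the consensus, 3 because they are described below (MED4, MRPL17 and CD8A) and 3 because they had the highest mean percentile rank by fold among other members with the consensus in both lists (CNIH1, POLR3E and AGFG1). Each was read from GRCh37 on the strand that carries the consensus, over 30 bases, with the 15 positions of the match in capitals. All 6 matches lay upstream of the start, by 69 to 210 bp.

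MED4, chr13:48669364-48669393, minus strand: tcgccggcCCAACAGATGGCGCCggtgtcc
MRPL17, chr11:6704767-6704796, minus strand: cttatcccACACTAGGGGGCGCCtggttct
CD8A, chr2:87035644-87035673, plus strand: tgtcggcCCAGCAGGGGGCGGTgctgcttt
CNIH1, chr14:54908204-54908233, minus strand: gactccggCCATCAGAGGGCGCCggggcgg
POLR3E, chr16:22308596-22308625, minus strand: cccgccctGCAGCAGGGGGCGCTgatggca
AGFG1, chr2:228336785-228336814, plus strand: ctcctggCCAGCAGAGGGCGCCagcggaca

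The match ran on the strand of the gene at MED4, MRPL17, CNIH1 and AGFG1, and on the opposite strand at CD8A and POLR3E. Most members held no full match in their central 200 bp, and 3 of the strongest are shown as examples. Their stretches are printed on the strand of the gene, outside annotated exons, with the place nearest to the consensus in capitals. DHX8 had the highest fold of all control peaks, and the nearest places in its stretch had 2 mismatches (3 such places, of which the first is marked). The stretches of FAF2 and TSSC4 each had 1 place with 1 mismatch. In the stretches of other members with high folds, the nearest place had 1 mismatch at FAM174B, 2 at CATSPERG and 3 at EID2B and NOL11. Places with 2 or fewer mismatches were common. The central 200 bp held one in 78.6% of control members and 77.2% of control peaks more than 1 kb from any coding start. The 200 bp around all single-gene starts held one in 60.6%.

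DHX8, chr17:41561010-41561144, plus strand: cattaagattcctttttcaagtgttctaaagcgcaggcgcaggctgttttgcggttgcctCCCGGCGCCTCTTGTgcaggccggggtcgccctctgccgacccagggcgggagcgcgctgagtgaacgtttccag
FAF2, chr5:175875177-175875311, plus strand: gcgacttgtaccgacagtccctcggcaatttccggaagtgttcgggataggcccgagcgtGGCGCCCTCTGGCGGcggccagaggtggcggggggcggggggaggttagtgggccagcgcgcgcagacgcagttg
TSSC4, chr11:2421577-2421711, plus strand: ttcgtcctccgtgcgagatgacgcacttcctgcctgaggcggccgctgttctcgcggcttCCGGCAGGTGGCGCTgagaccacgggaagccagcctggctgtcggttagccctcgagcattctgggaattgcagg

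The match of TSSC4 ran on the strand of the gene, and those of DHX8 and FAF2 on the opposite strand.

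Members gathered at the start and lay somewhat more often on its upstream side. The median distance of the centre from the start was 271.5 bp in control members and 297.5 bp in PDS members. The start itself was covered by 831 control members (36.3%) and 764 PDS members (34.0%). Leaving out the 5 control and 3 PDS members centred on the start, 1237 of 2287 control members lay upstream (54.1%, 52.0 to 56.1). Of the PDS members 1223 of 2243 did so (54.5%, 52.5 to 56.6). Both shares differed from 50% (two-sided exact binomial test, adjusted p = 9.97e-05 and 3.95e-05).

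**Figure D1:**
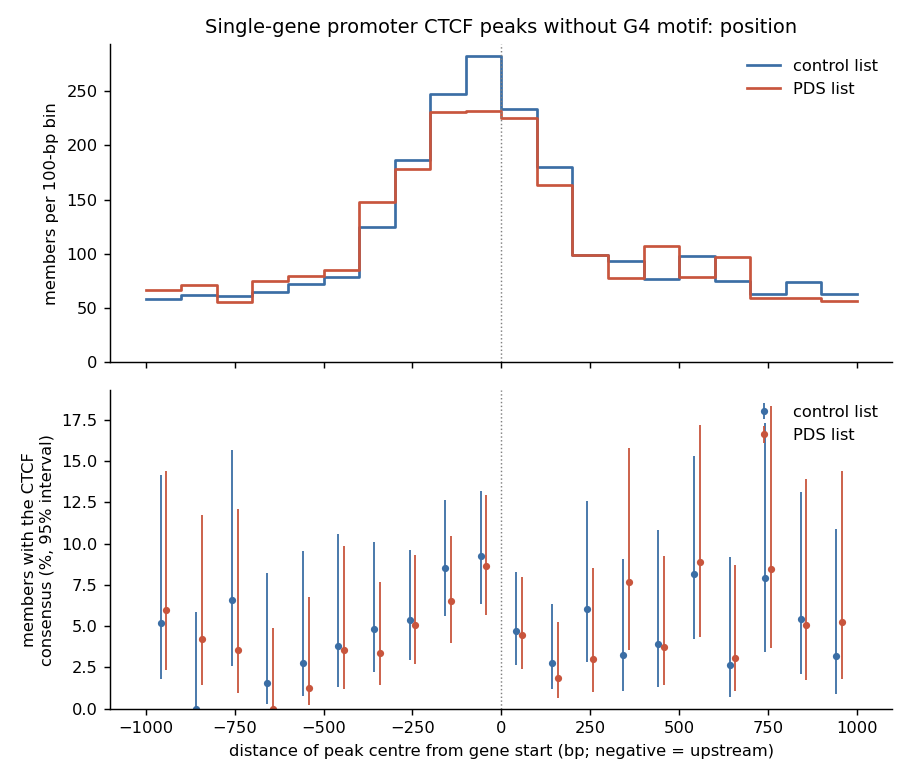
Distance of the peak centre from the gene start in bp (x axis, negative upstream) against the number of members per 100-bp bin (upper panel) and the share of them with the CTCF consensus within 100 bp of the centre (lower panel, % with 95% Wilson intervals), control list in blue and PDS list in red. Both counts peak around the start, and most members lie within 400 bp of it.

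Most centres fell upstream of the gene rather than in it. Of the control centres 54.1% lay upstream of all exons of the gene, 17.5% in an untranslated exon, 17.8% in an intron and 7.77% in a coding exon. PDS members were distributed alike, with 54.8% upstream, 17.7% in an intron and 6.95% in a coding exon. A few centres (2.84% and 2.63%) lay in exons of non-coding transcripts of the gene.

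Peaks just before the start were stronger than those just after it. Within 200 bp of the start, upstream control members had a median percentile rank by fold over IgG of 71.5 (100 being the strongest peak of the list) and downstream members one of 49.3. The PDS medians were 55.6 and 31.5. Ranked by p-value, the medians were 62.2 and 42.3 for control and 68.6 and 48.5 for PDS members. Upstream members were also wider, with a median of 300 bp in both lists against 240 bp (control) and 250 bp (PDS), and their GC content was lower (65.0% against 68.0%, and 64.0% against 66.0%).

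Within the same 200 bp of the start, the 2 sides also differed in the consensus. Upstream, 47 of 529 control members held it (8.88%), and downstream 15 of 408 (3.68%), a difference of 5.21 percentage points (2.07 to 8.29; two-sided Fisher's exact test, adjusted p = 0.00182). Among PDS members it stood in 35 of 463 upstream (7.56%) and 13 of 386 downstream (3.37%), a difference of 4.19 points (1.09 to 7.29; Fisher's exact test, adjusted p = 0.0106 over 4 comparisons). Upstream members overlapped a peak of the other list more often too, at 83.9% against 74.5% for control and 91.6% against 83.7% for PDS members (Fisher's exact test, adjusted p = 0.000912 for both). The part of the greater width of upstream members in that difference was not tested. In 200-bp bins farther out, the consensus was more frequent upstream only in control members at 200 to 400 bp (5.14% against 4.69%). At 400 to 600 bp it stood in 3.31% of control members upstream and 6.29% downstream. The PDS shares there were 2.42% and 5.91%. These bins were not tested.

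Few members carried the full consensus. It lay within 100 bp of the centre in 125 control members (5.45%, 4.60 to 6.46) and 109 PDS members (4.85%, 4.04 to 5.82). The single-gene promoter peaks that did hold a G4 motif had shares of 5.22% and 5.01%, and the differences were 0.23 points (-1.30 to 1.68) and -0.16 points (-1.70 to 1.27), with adjusted p = 0.872 for both by Fisher's exact test. This depended on the window. Within 500 bp of the start, control members were higher by 1.85 points (Fisher's exact test, unadjusted p = 0.0329), and with the consensus searched anywhere in the peak, members minus peaks with a G4 motif gave -2.40 and -2.70 points (Fisher's exact test, unadjusted p = 0.00783 and 0.0047). All other peaks, those more than 1 kb from any coding start, held the consensus in 14.6% and 10.4%. Members minus all other peaks gave -9.13 points (-10.1 to -8.05; Fisher's exact test, adjusted p = 1.22e-40) and -5.57 points (-6.46 to -4.54; adjusted p = 9.03e-20). Divergent promoters had 2.95% and 2.65%, and did not differ from members beyond counting error (Fisher's exact test, adjusted p = 0.165 and 0.182).

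With 1 mismatch allowed the consensus was found in 29.0% of control members and 26.8% of PDS members. These shares were below those of promoter peaks with a G4 motif (34.1% and 33.3%), with differences of -5.13 and -6.41 points (Fisher's exact test, unadjusted p = 0.00105 and 6.08e-05). The consensus was rare at promoters as such. Of all 18395 single-gene starts, 146 had it in the 200 bp around the start (0.794%), and the share was 2.57% at the 2604 starts with a member in either list while 79 of the 15791 others had it. Starts with a consensus within 1 kb had a control member in 25.8% (22.9 to 29.0) of cases and a PDS member in 26.7% (23.8 to 29.9), compared with 11.2% and 10.8% of starts without one.

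**Figure D2:**
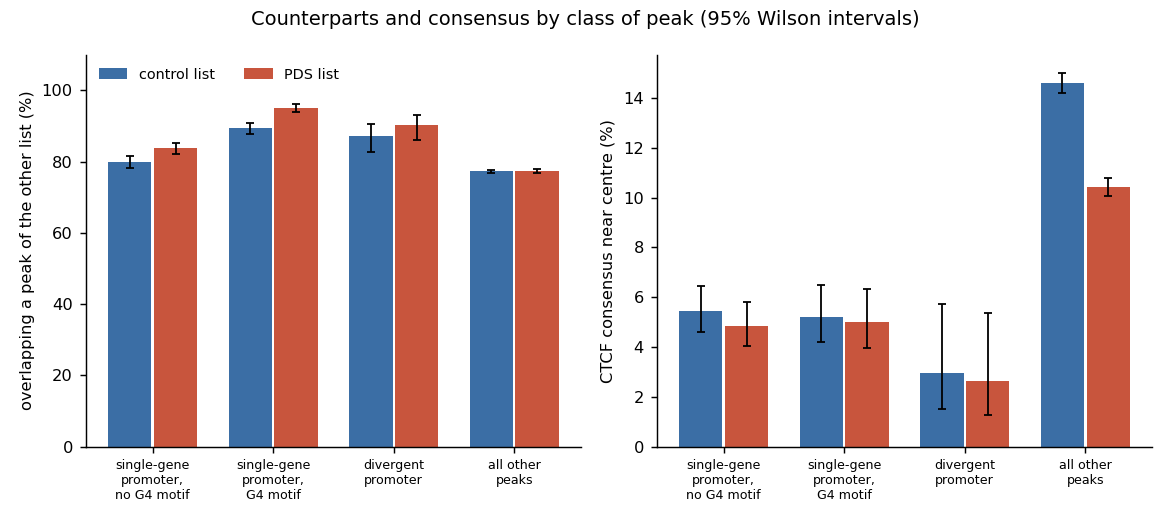
Share of peaks overlapping a peak of the other list (left) and share with the CTCF consensus within 100 bp of the centre (right), in % with 95% Wilson intervals, for single-gene promoter peaks without and with a G4 motif, divergent promoter peaks and all other peaks, in the control list (blue) and the PDS list (red). Promoter classes hold the consensus in 2.65% to 5.45% of peaks, all other peaks in 14.6% and 10.4%.

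Members with the consensus ranked higher than those without it. Their median percentile rank by fold was 79.7 against 52.0 for control and 67.5 against 37.9 for PDS members. They were wider (420 against 300 bp, and 400 against 300 bp), and 92.0% and 93.6% of them overlapped a peak of the other list, as against 79.3% and 83.2% of the members without. In the 10% of control peaks with the highest folds stood 375 members, of which 38 held the consensus (10.1%, 7.47 to 13.6), while the other members held it in 4.54% (3.69 to 5.56). The PDS list had 262 such members, 21 of them with the consensus (8.02%, 5.30 to 11.9, against 4.44%).

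The consensus pointed along the gene more often than against it in the control list, and the lists were not tested against each other. Of 125 matches in control members 77 lay on the strand of the gene (61.6%, 52.8 to 69.7; two-sided exact binomial test, adjusted p = 0.0239). Of 109 in PDS members 60 did (55.0%, 45.7 to 64.1; exact binomial test, adjusted p = 0.338), but searched anywhere in the peak the share of PDS members was 58.3% (exact binomial test, unadjusted p = 0.0450). Over the 159 distinct positions of either list, at 157 genes and with 77 positions in both lists, 91 lay on the strand of the gene (57.2%, 49.5 to 64.7; exact binomial test, unadjusted p = 0.0807). With loops of up to 12 nt in the rule, the share of control members was 58.9% and no longer differed from 50% (exact binomial test, p = 0.113).

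Base composition set members apart from peaks outside promoters. The rule left out runs of G, so the GC content is partly fixed by it. In the central 200 bp the median GC content was 63.5% in control members and 62.3% in PDS members, compared with 72.0% and 70.5% in promoter peaks with a G4 motif and 50.5% and 52.5% in all other peaks. The CpG dinucleotide was present at a median of 0.741 and 0.717 of the number that the base composition gives, against 0.258 and 0.260 in all other peaks. A start was the more often bound the richer it was in CpG. Of the starts with a CpG ratio of 0 to 0.2 in their central 200 bp, 3.34% had a control member and 3.52% a PDS member. Of those with a ratio over 1, 17.1% and 16.6% did.

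Other promoter elements were searched on both strands of the central 200 bp. The GC box (GGGCGG), bound by Sp1 and its relatives, was present in 39.8% of control members and 36.9% of PDS members, compared with 11.5% and 11.6% of all other peaks. The CCAAT box (CCAAT), the site of NF-Y, was present in 17.5% and 17.8% of members, and a TATA box (TATAAA) in 3.01% and 2.89%. Both were more frequent in all other peaks, at 22.0% and 20.7% for the CCAAT box and 9.20% and 6.25% for the TATA box. Longer sites were rare: the ETS site (CCGGAAGT) stood in 1.92% and 2.18% of members, the YY1 site (AAGATGGC) in 1.96% and 1.69%, the NRF1 site (GCGCATGC) in 1.61% and 1.34%, and the cAMP response element (TGACGTCA) in 0.960% and 0.890%. The Kaiso site (TCTCGCGA, 0.524% and 0.579%) and the ZNF143 site (ACTACAAT, 0.349% and 0.134%) stood in under 1% of members. Members were not set against starts here, as their windows are centred on the peak. In the 200 bp around all single-gene starts, the GC box stood at 45.2%, the CCAAT box at 25.3%, the TATA box at 7.49%, the ETS site at 3.83%, the YY1 site at 2.76%, the NRF1 site at 2.62%, the cAMP response element at 1.75%, the Kaiso site at 0.946% and the ZNF143 site at 0.332%. Divided by membership, the ETS site stood at 6.18% of starts with a member and 3.44% of those without, the YY1 site at 4.30% and 2.51%, the NRF1 site at 3.34% and 2.50%, and the GC box at 54.9% and 43.6%. The CCAAT box (24.0% and 25.5%), the TATA box (4.30% and 8.01%) and the ZNF143 site (0.230% and 0.348%) were the less frequent at starts with a member, and the cAMP response element (1.96% and 1.72%) and the Kaiso site (1.42% and 0.868%) the more frequent. These shares were not tested. Starts with a member were also richer in CpG, with a median ratio of 0.855 against 0.675. From starts with a CpG ratio of 0 to 0.2 to those over 1, the ETS site rose from 0.108% to 8.24%. The TATA box fell from 17.4% to 2.84% over the same classes. The part of CpG content in the split by membership was not tested. Such matches describe letters and not binding.

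The 10% of control peaks with the highest folds held the NRF1 site in 15 of 375 members (95% interval 2.44% to 6.49%), and the other members in 1.15% (0.759 to 1.73). The PDS values were 6 of 262 (2.29%, 1.05 to 4.91) and 1.21% (0.81 to 1.79), with intervals that overlapped. Ranked by p-value, the top 10% of control members held it in 1.69% and the others in 1.60%. By fold, the GC box stood in 45.3% (40.4 to 50.4) of the strongest control members and in 38.7% of the others. Among PDS members it stood in 34.7% (29.2 to 40.7) of the strongest and in 37.1% of the others. By p-value it stood in 43.4% of the strongest control members and 39.3% of the others. The PDS shares by p-value were 45.8% and 35.2%.

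Most members were found in both conditions. A PDS peak overlapped 1833 of the control members (80.0%, 78.3 to 81.6), and a control peak 1881 of the PDS members (83.7%, 82.2 to 85.2). This left 459 control members (20.0%) and 365 PDS members (16.3%) with no counterpart, where the whole lists left 22.0% and 21.4%. The members were thus close to the lists as a whole in control cells and below them in PDS-treated cells. Compared with all other peaks, members had a counterpart more often by 2.75 points (1.00 to 4.41; Fisher's exact test, adjusted p = 0.0033) and 6.35 points (4.70 to 7.90; adjusted p = 1.3e-12). Promoter peaks with a G4 motif had a counterpart more often still (89.4% and 95.1%), and members minus these peaks gave -9.45 points for control (-11.7 to -7.13; Fisher's exact test, adjusted p = 3.24e-14) and -11.4 points for PDS (-13.3 to -9.43; adjusted p = 9.82e-26).

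This difference moved with peak width, which the rule itself shapes, since a wider peak is more likely to touch a motif. Members had a median width of 300 bp in both lists and promoter peaks with a G4 motif of 480 and 500 bp. Among peaks over 200 and up to 400 bp wide, 89.0% of control members and 90.7% of promoter peaks with a G4 motif had a counterpart (difference -1.74 points, -5.19 to 2.10), and in the PDS list 96.9% and 95.7% had one (1.25 points, -1.10 to 4.15). In wider peaks both classes lay at 96.8% or above. Of 8 comparisons by width and list, 1 passed the threshold. It was that of the PDS peaks of at most 200 bp, where 61.9% of members and 74.5% of the promoter peaks with a G4 motif had a counterpart (-12.5 points, -19.1 to -5.18; Fisher's exact test, adjusted p = 0.00872). In control peaks of that width the shares were 51.6% and 46.9%, a difference of the other sign (4.74 points, -3.17 to 12.5).

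Members without a counterpart were weak and narrow. By p-value, 425 of the 459 control members (92.6%) and 360 of the 365 PDS members (98.6%) stood in the weaker 50% of their list. Of these 459 and 365, 210 and 219 had the smallest width the caller reports, 120 bp for control and 100 bp for PDS. The consensus was present in 10 of the 459 (2.18%) and 7 of the 365 (1.92%), compared with 6.27% and 5.42% of the members with a counterpart. No peak of the other list was found even 1 kb to either side of 351 control members (15.3%, with 16.9% of all control peaks) and 162 PDS members (7.21%, with 8.49% of all PDS peaks).

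Some peaks crossed the border of the rule from 1 list to the other. Of the members, 107 control and 153 PDS peaks overlapped a promoter peak of the other list that did hold a G4 motif. Of 95 one-to-one pairs with the motif in the PDS peak only, the PDS peak was the wider in 89, and of 127 pairs with the motif in the control peak only, the control peak was the wider in 109. The genome sequence read was the same for both lists, and only the reach of the peak differed.

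Ranks were compared in 1654 pairs in which a member of 1 list overlapped exactly 1 member of the other. Folds themselves are not on 1 scale, as the median fold over IgG was 26.5 in all control peaks and 16.7 in all PDS peaks. The order by p-value was kept more closely (Spearman's rho 0.833 across pairs) than the order by fold (0.564). This was not particular to members. All one-to-one pairs of the lists had 0.797 by p-value and 0.418 by fold. Pairs of promoter peaks with a G4 motif in both lists had 0.804 and 0.512. Pairs are not replicates, and these values are descriptions. The median shift from control to PDS was -6.70 percentile points by fold (quartiles -30.6 and 6.99) and 3.59 by p-value (quartiles -5.47 and 14.2). In all 24616 one-to-one pairs of the lists the median shifts were 0.68 points by fold and 2.30 by p-value. In the 1085 pairs of promoter peaks with a G4 motif in both lists they were -20.7 and 5.01 points. The measures went opposite ways in some pairs. Of the 1654 member pairs, 82 fell by at least 25 points in fold while rising by at least 25 in p-value. The same held for 662 of all 24616 pairs, which is a lower share. The reverse held for 18 member pairs and for 650 of all pairs, which is a higher share. These shares were not tested.

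**Figure D3:**
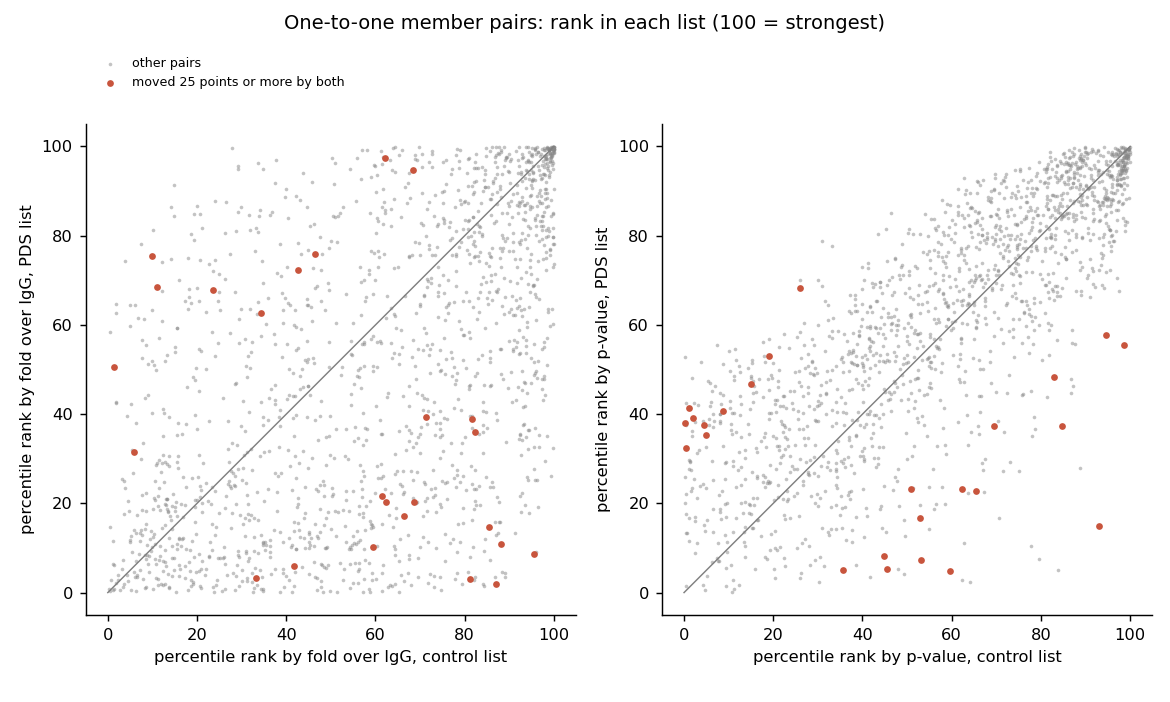
Percentile rank in the control list (x axis) and in the PDS list (y axis) of the 1654 one-to-one member pairs, by fold over IgG (left) and by p-value (right). Red points are the 25 pairs that moved by 25 points or more in the same direction by both measures, and the grey line marks equal ranks.

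Few pairs moved by both measures. With PDS, 10 pairs stood higher by at least 25 points in fold and in p-value (0.605%, with 0.926% among all 24616 pairs of the lists), and 15 stood lower (0.907%, with 0.626% among all pairs). At a shift of 10 points or more by both measures, 62 pairs stood higher with PDS (3.75%, with 7.6% among all pairs) and 83 lower (5.02%, with 4.12%).

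The shift in fold rank followed the GC content of the peak. The pairs were divided into 3 classes of nearly equal size by the GC content of the control peak. In the class of lowest GC content (up to 58.0%) the median shift by fold was 0.77 points, in the middle class -4.86 points, and in the highest class (68.0% and above) -22.0 points (quartiles -44.6 and -3.54). By p-value the medians were 1.14, 3.88 and 5.72 points. In promoter peaks with a G4 motif the medians by fold were -4.35, -10.6 and -25.3 points over the same 3 ranges of GC content, and in all other peaks 6.32, -1.72 and -21.5 points. The medians thus fell from the lowest to the highest range in each kind of peak. Differences between the kinds at equal range were not tested. Pairs centred downstream of the start, which were richer in GC (65.5% against 60.5%), fell by 12.1 points in fold and those upstream by 3.14 points. The part of GC content in the difference between the sides was not tested.

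**Figure D4:**
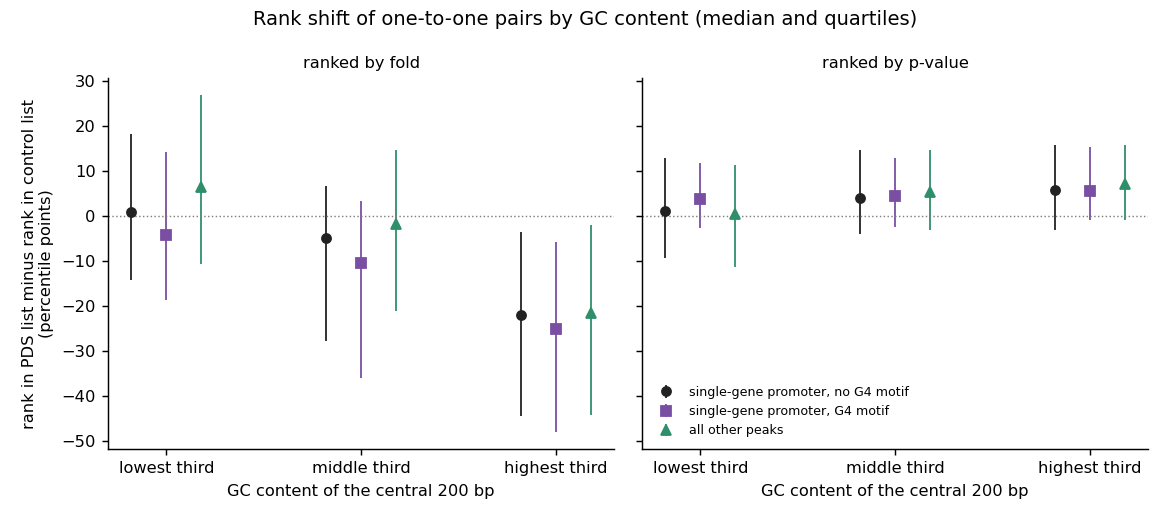
Rank in the PDS list minus rank in the control list, in percentile points (median and quartiles), by fold (left) and by p-value (right), for one-to-one pairs in 3 classes of GC content of the central 200 bp. Black circles are members, violet squares promoter peaks with a G4 motif and green triangles all other peaks; the median by fold drops to between -21.5 and -25.3 in the class of highest GC content in all of them.

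The strongest control members were found at promoters of genes with unlike functions. DHX8, a helicase that releases spliced mRNA from the spliceosome, had its peak at chr17:41560981-41561340 (hg19), 72 bp upstream of the start, with a fold of 252 in the control list (rank 1). Its PDS peak had a fold of 111 and rank 4. CATSPERG, a subunit of the sperm calcium channel, had a peak 84 bp upstream of the start with folds of 209 (rank 3) and 53.4 (rank 196).

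These peaks kept ranks near the top. FAF2, which takes part in the removal of misfolded proteins from the endoplasmic reticulum, had a peak in an intron 642 bp downstream, with folds of 199 (rank 5) and 45.2 (rank 463). EID2B, a small inhibitor of differentiation, had one 79 bp upstream with folds of 194 (rank 8) and 51.1 (rank 255). FAM174B, a membrane protein, was the exception by fold. Its intronic peak 583 bp downstream fell from a fold of 197 (rank 6) to one of 22.0 (rank 8672). By p-value its percentile rank rose from 90.5 to 98.5.

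The strongest PDS members included DHX8 as well, and 4 others. NOL11, a nucleolar protein of ribosomal RNA processing, had folds of 47.2 in control (rank 4606) and 122 in PDS-treated cells (rank 3), at chr17:65713801-65714050. By p-value its percentile rank fell from 98.9 to 81.1. MED4, a subunit of the Mediator complex that links factors to RNA polymerase, held the consensus printed above and had folds of 127 (rank 72) and 101 (rank 6). TSSC4, a factor of snRNP assembly, had folds of 144 (rank 39) and 98.0 (rank 8).

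Of these only NOL11 stood outside the first 100 control peaks. CNEP1R1, a regulatory subunit of a nuclear envelope phosphatase, had folds of 126 (rank 73) and 93.2 (rank 9), with the peak in an untranslated exon 605 bp downstream. Of the 1654 pairs, 141 stood in the top 10% by fold of both lists (8.52%). That share was not computed for all pairs of the lists, so it does not tell members from other peaks. Among these 141 pairs CCDC7 (ranks 742 and 740), UTP23, a factor of small ribosomal subunit assembly (698 in both lists), and DHX8 had the closest ranks.

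Members that lacked a peak of the other list up to 1 kb away were of lower rank. Among control members of this kind the highest fold was that of LRRC37A3 (96.1, rank 306), at chr17:62915581-62915760, whose family has near-identical copies on the chromosome, so its reads are uncertain. PRELID2 had a fold of 58.0 (rank 2394), and CANX, the chaperone calnexin, one of 49.7 (rank 3946). By p-value the percentile ranks of LRRC37A3 and CANX were only 11.6 and 18.7, and that of PRELID2 was 60.1.

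By fold, those of the PDS list ranked lower still. CXCL3, a chemokine that attracts neutrophils, had a fold of 22.8 (rank 7759) in a coding exon 223 bp downstream. HASPIN, the kinase that marks histone H3 in mitosis, had a fold of 21.2 (rank 9538), and WDR83OS, a membrane protein of the endoplasmic reticulum, one of 20.9 (rank 9898). All 3 lay between the percentile ranks 26.7 and 30.9 by p-value, above LRRC37A3 and CANX and below PRELID2.

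Pairs that rose in rank with PDS were selected for that shift, and their values are a description. USP47, a deubiquitinase, had folds of 24.3 (rank 19129) in control and 28.7 (rank 3619) in PDS-treated cells. The others were DGCR6L (16.5 and 17.5), which has a near-identical copy on chromosome 22 so that its reads are uncertain, the cold-induced RNA-binding protein RBM3 (25.5 and 20.5) and the hypoxia factor EPAS1 (20.6 and 16.8). These 4 lay downstream of the start, by 321 to 842 bp. None of these 4 reached a shift of 25 points by both measures, so they are not among the pairs counted as moved above.

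Pairs that fell in rank were selected in the same way, and GC content was read for the 5 described. MARCHF7, a ubiquitin ligase, had folds of 49.9 (rank 3890) and 9.13 (rank 29335), with a peak 117 bp upstream of 76.5% GC. LANCL2, a binding protein of abscisic acid, fell from 42.0 (rank 6209) to 6.73 (rank 31936) at 77.5% GC. RUBCN, an inhibitor of autophagy, fell from 29.7 (rank 13425) to 8.96 (rank 29524) at 78.0% GC.

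NFKBIA, the inhibitor that holds NF-κB in the cytoplasm, went from 24.1 (rank 19311) to 7.79 (rank 30940) at 79.0% GC. RIMKLB, an enzyme that makes acidic dipeptides, was unlike the other 4 with 38.5% GC, and went from 30.5 (rank 12733) to 11.8 (rank 25790). The 4 described as higher with PDS had between 50.5% and 61.5% GC.

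By gene, members were found at 2171 of the 18395 single-gene starts in control (11.8%) and at 2109 in PDS-treated cells (11.5%). Both lists had one at 1676 genes, and either list at 2604. Of the 495 genes with a control member only, 375 had no single-gene promoter peak with PDS, and of the 433 with a PDS member only, 238 had none in control. Any single-gene promoter peak, with or without a G4 motif, was present at 3495 genes in control and 3290 with PDS. How many of these lacked one in the other list was not counted. Of all peaks, 22.0% in control and 21.4% with PDS overlapped no peak of the other list. Gene lists were compared with the shares of all starts (11.8% and 11.5%), as counts without a test.

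**Figure D5:**
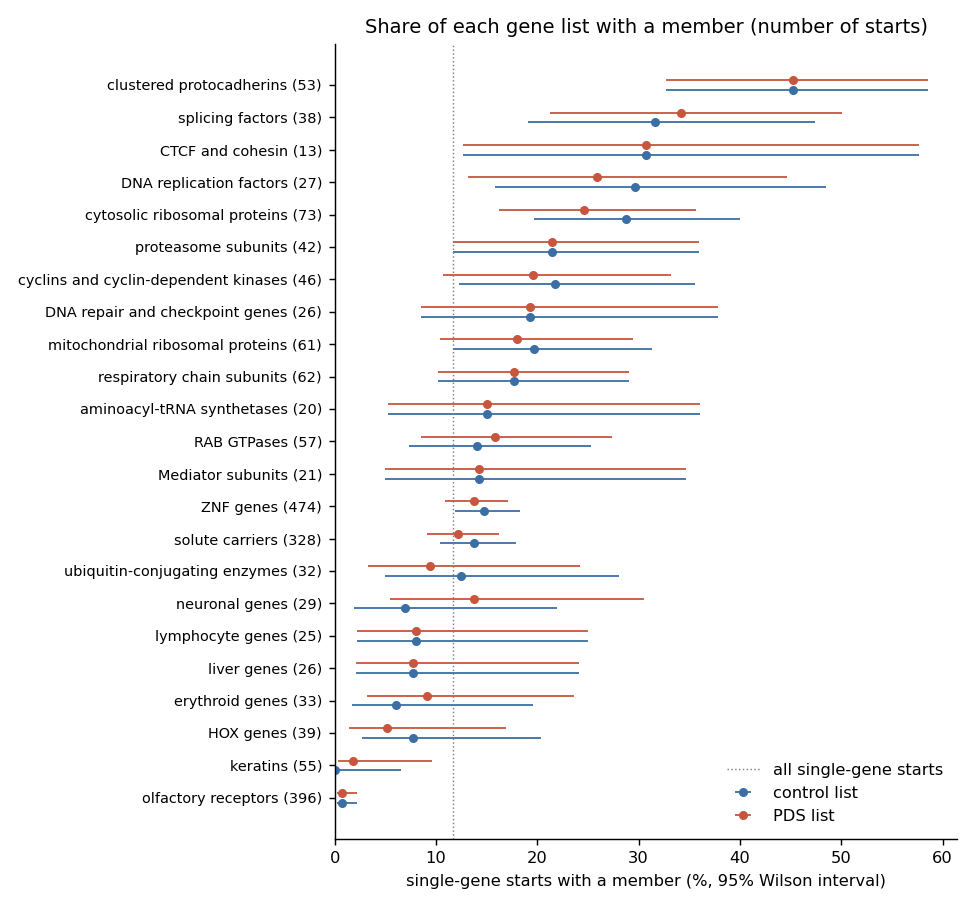
Share of the single-gene starts of each gene list that had a member (x axis, % with 95% Wilson intervals), control list in blue and PDS list in red, with the number of starts in parentheses. The dotted line is the mean of the shares of all starts, 11.8% and 11.5%; clustered protocadherins stand highest, and olfactory receptors and keratins lowest.

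The clustered protocadherins, adhesion proteins that neurons choose singly by promoter choice with the help of CTCF, had members at 24 of 53 starts in each list (45.3%, 32.7 to 58.5) and 20 in both. PCDHGB7 had the highest mean fold rank over both lists, with a peak 11 bp upstream, a fold of 56.8 in control (rank 2584) and one of 27.8 in PDS-treated cells (rank 4067). The starts of the list lie in 1 cluster on chromosome 5 and are similar in sequence, so they are not separate cases.

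Splicing factors, cytosolic ribosomal proteins and DNA replication factors also had shares above that of all starts. Their starts are rich in CpG, with median ratios of 0.933, 0.913 and 0.926 against 0.716 for all starts, and starts with a ratio of 0.8 to 1 had a control member in 16.4% and a PDS member in 15.8% of cases. Of 38 splicing factors, 12 had a control member (31.6%, 19.1 to 47.5) and 13 a PDS member (34.2%), among them PRPF18, a factor of the second splicing step, with folds of 97.9 and 55.3. Of 73 cytosolic ribosomal proteins, 21 (28.8%, 19.7 to 40.0) and 18 (24.7%) had one. Of 27 DNA replication factors 8 (29.6%) and 7 (25.9%) had one, with POLD4, a subunit of DNA polymerase delta, at folds of 79.9 and 39.1.

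CTCF and cohesin genes had a member at 4 of 13 starts in both lists (30.8%, 12.7 to 57.6), namely ESCO1, NIPBL, PDS5B and STAG1. PDS5B, a regulator of cohesin release, had folds of 137 (rank 48) and 26.2 (rank 5008). STAG1, a cohesin subunit, held the consensus in both lists at percentile ranks by fold of 90.8 and 54.5, and ESCO1, which acetylates cohesin, had folds of 119 and 19.4 without it. With 13 starts the interval is wide.

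The lists of intermediate share had intervals that held or came close to the share of all starts. Proteasome subunits had members at 9 of 42 starts (21.4%) in both lists, with PSME3 at folds of 60.5 and 32.0. Cyclins and cyclin-dependent kinases had 10 and 9 of 46, with CDK11A at 29.4 and 21.6, a gene whose neighbour CDK11B is a near-identical copy, so its reads are uncertain. DNA repair and checkpoint genes had 5 of 26 in both lists, with ERCC1, an endonuclease subunit of excision repair, at 65.6 and 31.8.

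Mitochondrial genes were similar to one another. Mitochondrial ribosomal proteins had 12 and 11 of 61 starts, with MRPL17 at 105 and 42.3. Its consensus lay in both peaks, but in the central 200 bp of the control peak only. Respiratory chain subunits had 11 of 62 in both lists, with NDUFA6 of complex I at 92.8 and 49.8. Smaller or broader families stood near all starts: aminoacyl-tRNA synthetases (3 of 20 in both lists, RARS1 at 80.1 and 29.8), Mediator subunits (3 of 21 in both), RAB GTPases (8 and 9 of 57, RAB8A at 65.2 and 20.6) and ubiquitin-conjugating enzymes (4 and 3 of 32, UBE2Q1 at 31.7 and 28.1).

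ZNF genes and solute carriers are large families, and their intervals were narrower. ZNF genes, mostly zinc-finger repressors, had members at 70 of 474 starts (14.8%, 11.9 to 18.2) and 65 (13.7%, 10.9 to 17.1), with ZNF839 at folds of 67.0 and 52.9. Solute carriers had 45 (13.7%, 10.4 to 17.9) and 40 (12.2%, 9.08 to 16.2) of 328, with the zinc transporter SLC30A5 at 96.2 and 54.7.

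Of the lists of tissue-specific and developmental genes, olfactory receptors and keratins had shares below that of all starts. The median CpG ratio of the starts was 0.130 for olfactory receptors, 0.191 for liver genes, 0.239 for keratins and 0.286 for lymphocyte genes, while it was 0.609 for neuronal and 0.710 for HOX genes and 0.716 for all starts. Olfactory receptors had 3 of 396 in each list (0.758%), with OR52N2 at 19.6 and 16.2, and keratins had 0 and 1 of 55, where 0 allows a share of up to 6.53% (upper Wilson bound). HOX genes, which order the body axis, had 3 and 2 of 39 (7.69% and 5.13%), with HOXC5 at folds of 21.6 and 22.9. Neuronal genes had 2 and 4 of 29 (6.90% and 13.8%), with a control member at GAD1 of fold 36.2 whose PDS counterpart, of fold 24.9, held a G4 motif and was no member, while its PDS members were other peaks with folds of 7.91 and 7.56. There were members at 2 of 26 liver genes in both lists (7.69%, HPX at folds of 23.1 and 22.1) and at 2 of 25 lymphocyte genes (8.00%, CD8A at 93.9 and 24.5). The intervals of the HOX, neuronal, liver and lymphocyte genes held the share of all starts in both lists.

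Erythroid genes, the lineage of K562, had a member at 2 of 33 starts in control (6.06%, 1.68 to 19.6) and 3 in PDS-treated cells (9.09%, 3.14 to 23.6), and both intervals held the share of all starts. Their median CpG ratio was 0.371. HBZ, the embryonic zeta globin, whose neighbouring pseudogene is a near copy so that its reads are uncertain, was the 1 gene of this list with a member in both lists, at 9.38 (rank 30836) and 18.9 (rank 12643). Its peak lay in an intron 504 bp downstream of the start.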

How the data were processed

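CTCF ChIP-seq of K562 cells was analysed from 2 deposited peak lists, 1 for control and 1 for PDS-treated cells. The authors mapped reads to hg19 with Bowtie2 2.2.3, filtered out duplicate and poorly mapped reads with SAMtools, and called peaks with PePr on both replicates of a condition against IgG. The deposited fold of each peak over IgG is the authors' ratio and was used only for ranks within a list and for description. The deposited p-value of each peak is the authors' PePr value, and it ordered peaks within a list. The score column and the adjusted p-values were not used. The lists hold no counts, so depth and replicate spread are unknown. The largest p-value in both lists was 1e-05.

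Gene starts were gene rows of GENCODE v44 lifted to GRCh37, the same build as hg19. In the lists 25 and 24 peaks lay on other sequences and were left out. The consensus of 15 positions was taken from the study's introduction and searched on both strands of the 200 bp at the peak centre. Peaks had a counterpart when they overlapped a peak of the other list by at least 1 bp. Shares carry 95% Wilson intervals and differences Newcombe intervals. Tests were two-sided Fisher's exact tests and exact binomial tests against 50% with a threshold of 0.05 and Benjamini-Hochberg adjustment within each family. Peaks are not replicates, and these tests cover counting error only. Functions were tested on simulated data. Python 3.11.15, pandas 2.3.3 and SciPy 1.17.1 were used. The members and gene lists were chosen with earlier results of these data known; the list of clustered protocadherins was completed with its C-type genes, and the Kaiso, NRF1 and ZNF143 sites and the GC classes were added, after values had been seen. Genes were named by fixed rules: the 5 highest folds of each list, the 5 largest rank shifts each way by both measures among pairs at least 200 bp wide, the 3 highest folds lacking a peak of the other list up to 1 kb away, the 3 closest ranks in the top 10% of both lists, and the gene with the highest mean fold rank of each gene list. ESCO1 and STAG1 were named after their values were seen. A few genes that these rules name are not reported here.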

Additional observations from a re-analysis of the deposited data

How the results depend on the processing

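All p-values here are unadjusted, from Fisher's exact test for differences and the exact binomial test for strands. Of 83 values recomputed under an alternative, 53 kept their direction and their side of the threshold, moved by less than their interval or, for counts, stayed within 1.5 times; the others follow. Among those counts, members numbered 1600 and 1598 with loops of 1 to 12 nt and 1601 and 1547 within 500 bp, from 2292 and 2246. With loops of 1 to 12 nt, 78.1% of control and 80.6% of PDS members had a counterpart, the consensus lay on the strand of the gene in 58.9% of control members (exact binomial p = 0.113) and 16 pairs moved in rank. Within 500 bp of the start, 86.2% of PDS members had a counterpart, and members held the consensus more often than promoter peaks with a G4 motif by 1.85 points in the control list (exact p = 0.0329) and 0.75 points in the PDS list, where the sign turned. Among the peaks ranked in the stronger 50% by p-value there were 1143 control and 1238 PDS members, 88.4% of the control members had a counterpart, the consensus stood in 8.05% and 6.54%, the PDS difference in consensus turned to 1.09 points (exact p = 0.295), and 2 pairs moved. Counterparts were 70.2% and 72.6% when the overlap had to cover 50% of each peak, and 84.7% and 92.8% with a gap of up to 1 kb. Searched anywhere in the peak, the consensus stood in 6.72% and 6.95% of members, below promoter peaks with a G4 motif by 2.40 points (a turned sign, value -2.40, exact p = 0.00783) and by 2.70 points (-2.70, p = 0.0047), and on the strand of the gene in 58.3% of PDS members (p = 0.0450). With 1 mismatch the shares were 29.0% and 26.8%, and the differences -5.13 points (a turned sign, exact p = 0.00105) and -6.41 points (p = 6.08e-05). With a shift of 10 points 145 pairs moved, 62 higher (3.75%, with 7.6% of all pairs) and 83 lower (5.02%, with 4.12%). For peaks over 200 and up to 400 bp wide, an alternative chosen after seeing the data, the differences in counterparts were -1.74 points (exact p = 0.418) and 1.25 points (p = 0.366), where the sign turned.

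The comparison of the consensus between promoter peaks with and without a G4 motif thus changed with the window and the mismatches allowed, and the cause was not tested. Leaving out a replicate gave no value because each list pools the replicates. No paired analysis was possible because the lists carry no values of single replicates.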

Other observations

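Members were spread over all chromosomes, but unevenly. Chromosome 5 had the highest share of single-gene starts with a member, 17.0% (14.5 to 19.7) in the control list and 14.5% (12.3 to 17.1) in the PDS list. Without the clustered protocadherins the shares were 15.0% (12.6 to 17.7) and 12.4% (10.2 to 14.9), and in the PDS list chromosome 5 then stood below chromosomes 1, 12, 16, 17 and 20. The X chromosome stood at 7.54% (5.93 to 9.55) and 6.57% (5.07 to 8.47), below the shares of all starts in both lists. Chromosome 21 had 8.76% (5.68 to 13.3) and 6.91% (4.23 to 11.1), and chromosome 4 had 9.46% and 7.31%.

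Several members at 1 start were rare. In the control list 111 genes had 2 members and 5 had 3, and in the PDS list 123 had 2 and 7 had 3. MORF4L2, a subunit of a histone acetyltransferase complex, was the 1 gene with 3 members in both lists.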
